A study of Mus musculus with 12 samples.

Results

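Kruppel-like factors are transcription factors with zinc fingers at their C-terminal end that bind GC-rich and CACCC-containing DNA, and they are closely related to the Sp factors. Their N-terminal parts differ and recruit histone acetyltransferases, the corepressor CtBP or the corepressor Sin3, so that members of the family can activate or repress overlapping genes. In the liver the family is known for its part in gluconeogenesis, amino acid breakdown and hormone responses of hepatocytes, and for the response of stellate and endothelial cells to injury and blood flow. The RNA of 10 of these genes, Klf2, Klf4, Klf5, Klf6, Klf9, Klf10, Klf11, Klf12, Klf13 and Klf15, is described here across 3 groups of mouse liver cells. They are 10 of the 53715 genes in the count table and 10 of its 17 Klf genes. The 10 genes were chosen by their RNA values in these same groups, so their levels and fold changes are a description and carry no test.

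RNA was sequenced from 12 libraries of C57BL/6JOlaHsd mice, 4 biological replicates in each of 3 groups. Hepatoblasts, the common precursors of hepatocytes and bile duct cells, were taken from E14.5 livers by magnetic selection for the surface protein Dlk1 and lysed at once. Diff. hepatocytes were such E14.5 cells after 4 days of culture on fibronectin, in a medium with serum, Matrigel, an insulin supplement and the glucocorticoid dexamethasone (culture protocol 1). Mature hepatocytes came from livers of male mice aged 8 to 12 weeks by collagenase perfusion and were lysed at once. No group carried a transgene, deletion or knock-down by the labels. Each hepatoblast isolation pooled livers of several embryos of unstated sex, the cultured cells had been through the same selection, and the adult cells were from males, so age, sex, isolation and culture cannot be told apart between the groups. Libraries held 21523329 to 25216977 counts on genes for hepatoblasts, 19581551 to 22026087 for Diff. hepatocytes and 20043218 to 23791477 for mature hepatocytes. Levels are given as counts scaled to a common library size of 1000000 (CPM) after scaling of the library sizes by the TMM method, and means are ± SD over 4 libraries.

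The labels were checked against marker genes. Dlk1, the surface protein used for the selection, measured 3523 ± 759 CPM for hepatoblasts, 94.2 ± 4.55 CPM for Diff. hepatocytes and 4.19 ± 1.5 CPM for mature hepatocytes. Of the 9 hepatocyte markers, 6 were called higher and 0 lower in Diff. hepatocytes than in hepatoblasts, and all 9 were called higher in mature hepatocytes than in hepatoblasts. Called means that edgeR's quasi-likelihood test gave an adjusted p (Benjamini-Hochberg) below 0.01 and that the log2 fold change was beyond 1 in either direction. Cyp2e1, a cytochrome of the adult liver lobule, stood at 3.24 ± 0.79 CPM for Diff. hepatocytes and 6504 ± 2033 CPM for mature hepatocytes, while Cps1 of the urea cycle measured 5920 ± 417 and 6066 ± 653 CPM. Afp, the fetal serum protein, kept a mean of 18609 ± 2091 CPM for Diff. hepatocytes against 39337 ± 8265 CPM for hepatoblasts and 42.3 ± 11.2 CPM for mature hepatocytes. The cultured cells thus carried RNA of both fetal and adult hepatocyte markers, and Cyp2e1, at 2.82 ± 0.266 CPM for hepatoblasts, was among the 3 hepatocyte markers not called between them and hepatoblasts, with Alb and Ttr.

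Some libraries stood apart from the others of their group. The summed level of the 11 erythroid markers was 3464, 768, 616 and 505 CPM for hepatoblast replicates 1 to 4, and that of the 10 macrophage markers was 356, 88.1, 109 and 105 CPM. Replicate 1 was the high library in both sums, and none of these markers was at 0 counts in a hepatoblast library. In Diff. hepatocytes 10 of the 11 and 3 of the 10 were called lower than in hepatoblasts and none higher, Kel being at 0 counts in at least 1 library. In mature hepatocytes 10 erythroid markers were called lower and 1 higher, and 1 macrophage marker lower and 1 higher. In Diff. hepatocytes, replicate 1 had the highest sum of the 6 tested bile duct markers, at 232, 92.7, 118 and 102 CPM over replicates 1 to 4, and of the 9 mesenchymal markers, at 3251, 1547, 2147 and 1343 CPM. The macrophage sum was also highest in that library, at 168, 73.8, 23.8 and 35.1 CPM. Among mature hepatocytes, Arntl, the core gene of the circadian clock, had 23.8, 1.48, 22.8 and 1.18 CPM in replicates 1 to 4, high in replicates 1 and 3 and low in replicates 2 and 4. The hour of isolation is not given in the sources used here. Values of the members are therefore given library by library, and some log2 fold changes are repeated without a library that stood apart. In bulk RNA, fewer cells of a type and less RNA per cell cannot be told apart, which holds for every level below.

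**Figure D1:**
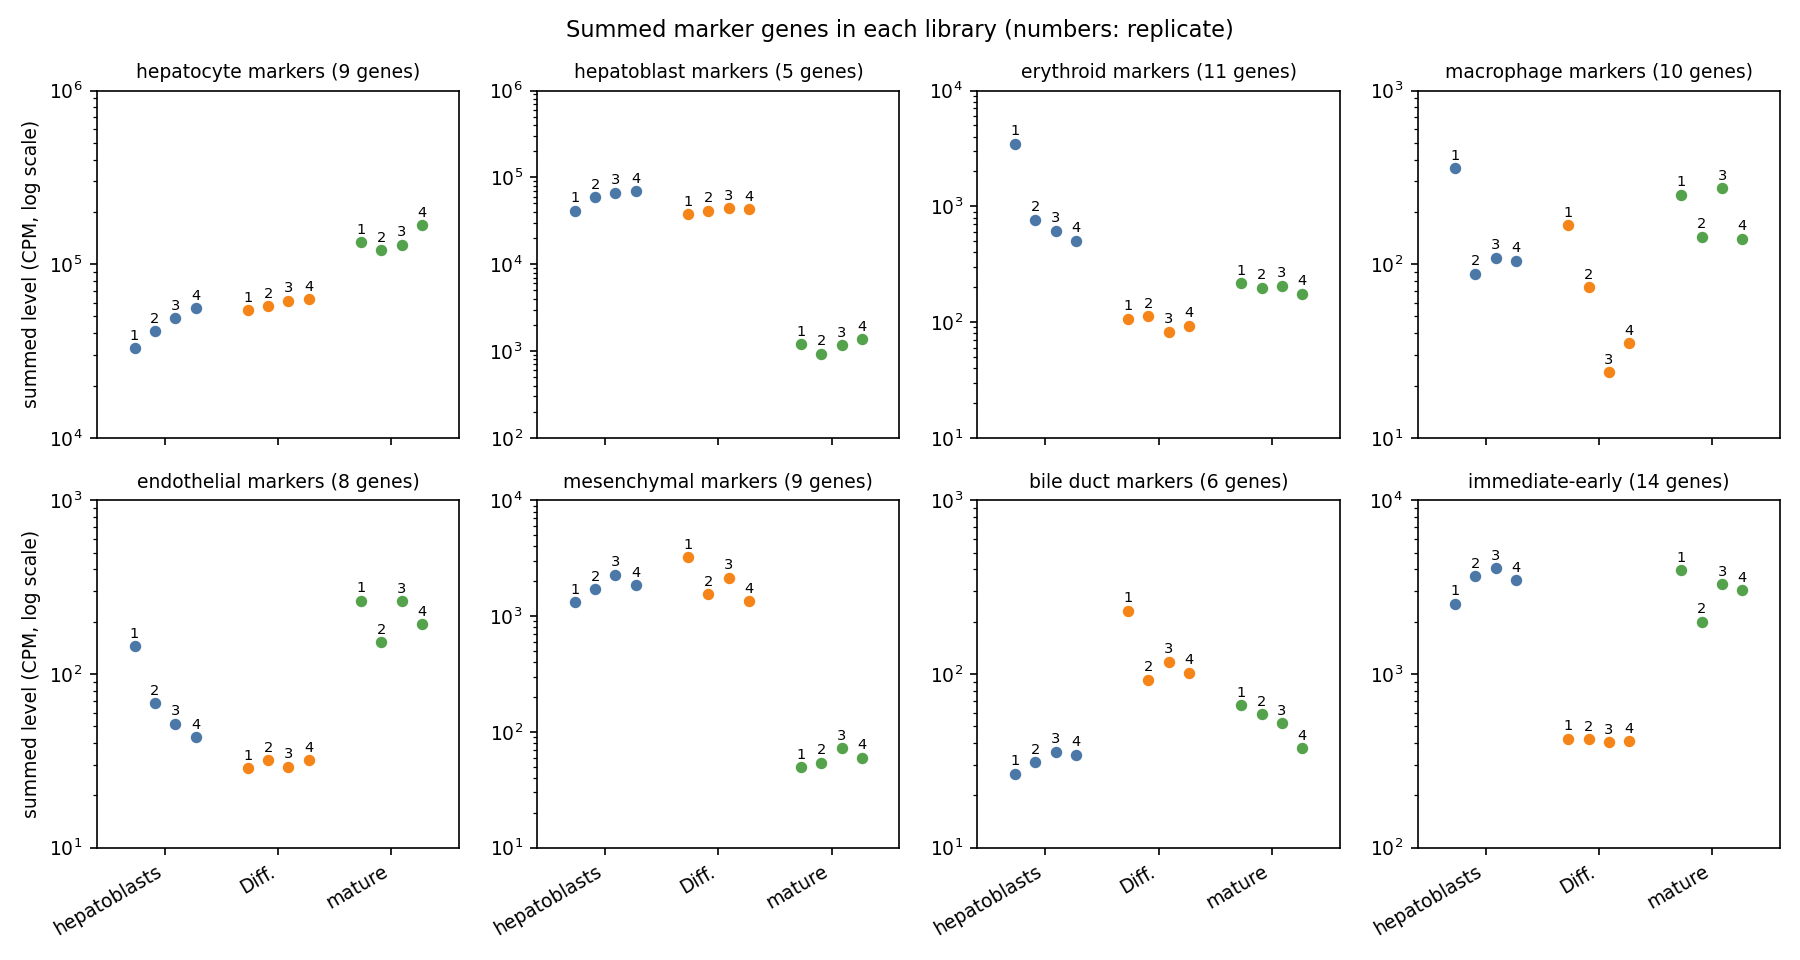
Summed level of each marker list in each library, in CPM on a log scale, with points numbered by replicate and blue, orange and green for hepatoblasts, Diff. hepatocytes and mature hepatocytes. Erythroid markers reached 3464 CPM for hepatoblast replicate 1 and at most 768 CPM in the other hepatoblast libraries, and the 14 immediate-early genes lay between 406 and 425 CPM for Diff. hepatocytes against 1999 CPM or more in the other groups.

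All 10 genes passed the filter of more than 10 counts in any library, as did 17779 genes in all. Against hepatoblasts, 4 of the 10 (Klf5, Klf9, Klf13 and Klf15) were called higher in Diff. hepatocytes and 3 (Klf2, Klf6 and Klf11) lower. Over all tested genes 14.9% were called higher and 14% lower in that comparison, 28.9% together, and nothing is read from the members' count since the same contrast chose them. In mature hepatocytes against hepatoblasts, 3 members (Klf9, Klf13 and Klf15) were called higher and 3 (Klf2, Klf4 and Klf6) lower, where all genes gave 20.1% higher, 24.7% lower and 44.8% together. Between the hepatocyte groups, 2 members (Klf5 and Klf6) were called higher and 2 (Klf9 and Klf10) lower in Diff. hepatocytes, where 20.2% of all genes were called higher, 15.6% lower and 35.8% in all. The first and second comparisons share the hepatoblast libraries, and each also shares a group with the third, so each is given by its own values. Klf9 and Klf15 thus stood high in both hepatocyte groups, Klf2 stood high in hepatoblasts, Klf5 was high in Diff. hepatocytes, and Klf6 was graded from hepatoblasts over Diff. hepatocytes to mature hepatocytes. The directions in that sentence were the same with library totals in place of TMM.

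The median log2 fold change of the 10 members was -0.35 in Diff. hepatocytes against hepatoblasts, with -0.01 over all tested genes. It was -0.69 in mature hepatocytes against hepatoblasts, with -0.15 over all genes, and -0.32 in Diff. hepatocytes against mature hepatocytes, with 0.09 over all genes. The members nearest the thresholds were Klf13 inside at 1.32 and Klf4 outside at -0.71 in the first comparison, Klf13 inside at 1.46 and Klf11 outside at -0.98 in the second, and Klf10 inside at -1.12 and Klf4 outside at 0.81 in the third. Klf5 also lay outside in the second comparison, at -1.25, because it missed the adjusted p. The TMM factors were 1.23 to 1.44 for hepatoblasts, 1.03 to 1.08 for Diff. hepatocytes and 0.677 to 0.778 for mature hepatocytes. With library totals in its place, the median log2 fold change of all genes moved by -0.32, -0.85 and 0.53 in the 3 comparisons. The members' calls then were 3 higher and 4 lower, 2 higher and 6 lower, and 3 higher and 0 lower, and higher genes made up 35.4%, 20.2% and 75.6% of all calls in place of 51.5%, 44.9% and 56.4%.

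**Figure D2:**
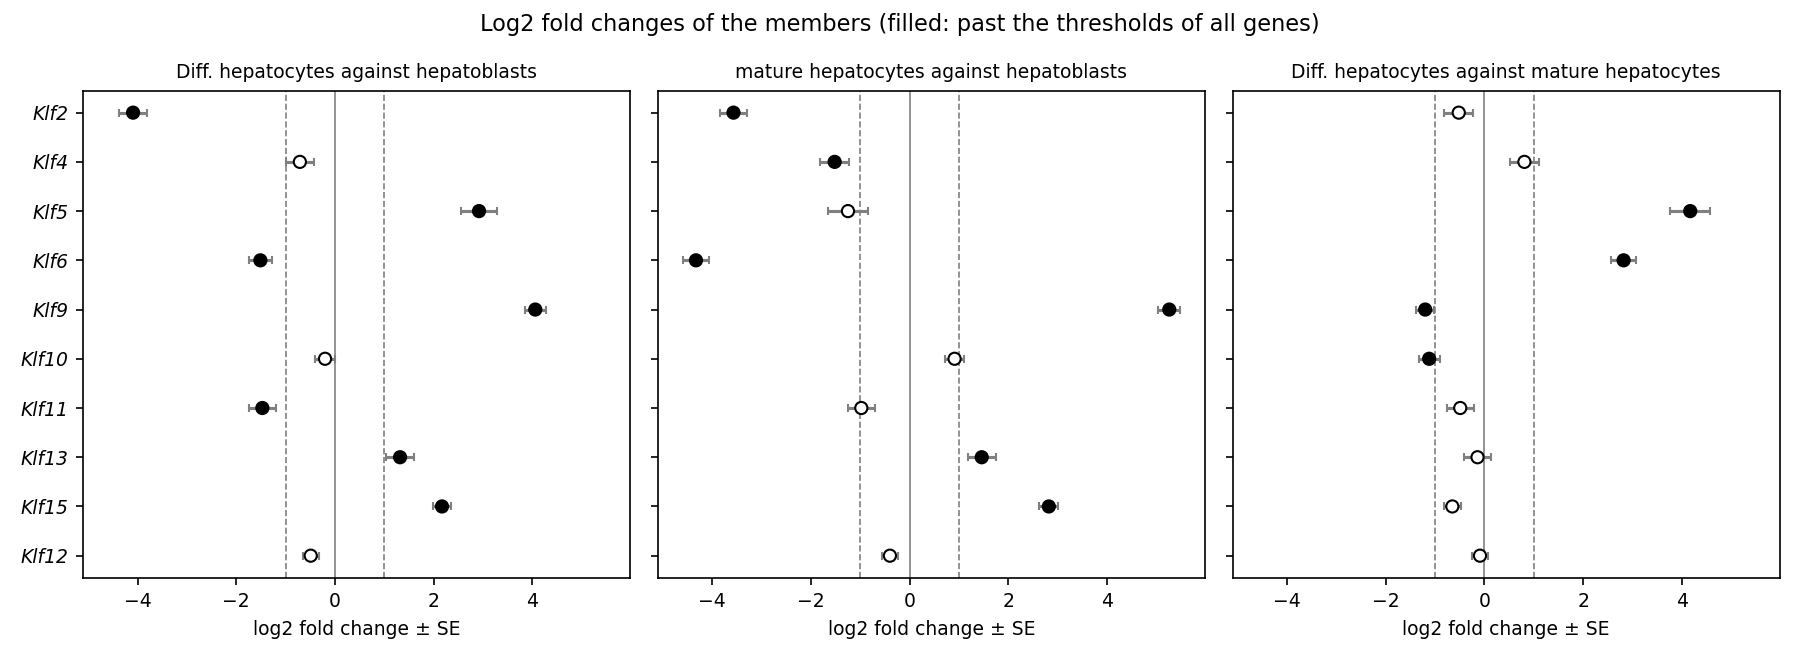
Log2 fold change of each member with its standard error in the 3 comparisons, filled where the gene was called, with dashed lines at the fold change threshold of 1 in either direction. Klf9 lay at 4.06 and 5.26 in both comparisons against hepatoblasts, Klf2 at -4.09 and -3.57, and Klf5 at 4.17 in Diff. hepatocytes against mature hepatocytes.

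Klf2, Klf4, Klf5 and Klf6 belong to the branch of the family that mostly activates transcription through acetyltransferases. Klf6 (ENSMUSG00000000078, chr13:5861482-5870394, plus strand) is induced in stellate cells of injured liver and regulates the cell cycle inhibitor Cdkn1a. It measured 148, 258, 210 and 171 CPM for hepatoblast replicates 1 to 4, 88.2, 64, 61.3 and 61.6 CPM for Diff. hepatocytes and 10.4, 5.07, 11.1 and 12.5 CPM for mature hepatocytes. The 3 groups were apart from each other, with Diff. hepatocytes in the middle, replicate 1 the highest of them and replicate 2 the lowest of the mature libraries. The log2 fold change against hepatoblasts was -1.51 (standard error 0.23) in Diff. hepatocytes and -4.33 (standard error 0.27) in mature hepatocytes. Without Diff. hepatocytes replicate 1, the first of these was -1.66.

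Klf2 (ENSMUSG00000055148, chr8:72319033-72321656, plus strand) is the flow-responsive factor of endothelial cells and also keeps lymphocytes quiescent. Its levels were 33.9, 59, 54.3 and 42.3 CPM for hepatoblasts, 4.02, 1.85, 2.44 and 2.81 CPM for Diff. hepatocytes and 5.69, 2.37, 4.14 and 3.79 CPM for mature hepatocytes. All hepatoblast libraries lay above all others, while the ranges of both hepatocyte groups overlapped. The log2 fold change was -4.09 (standard error 0.28) in Diff. hepatocytes and -3.57 (standard error 0.28) in mature hepatocytes against hepatoblasts, and -0.52 (standard error 0.29, not called) between the hepatocyte groups, where library totals gave 0.02. With its 8 markers, endothelial RNA was read beside it because Klf2 is abundant in those cells. Their sum was 145, 67.8, 51.7 and 43.4 CPM for hepatoblasts, 28.6, 31.9, 29.3 and 31.8 CPM for Diff. hepatocytes and 264, 153, 263 and 193 CPM for mature hepatocytes, with Stab2 the most abundant over all 12 libraries. None was called higher and 6 lower in Diff. hepatocytes, and 5 higher and 0 lower in mature hepatocytes against hepatoblasts. The sum was higher in every mature library than in every hepatoblast library, though Lyve1 went the other way (-1.19), and hepatoblast replicate 1 had the highest endothelial sum and the lowest Klf2 of its group. The part of endothelial cells in the Klf2 level was not tested. Clec4g was at 0 counts in at least 1 Diff. hepatocyte library, and no other marker of that list was at 0.

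Klf4 (ENSMUSG00000003032, chr4:55527143-55532466, minus strand) is a factor of epithelial differentiation and of reprogramming to pluripotency. It was low throughout, at 6.84, 4.72, 7.64 and 4.74 CPM for hepatoblasts, 5.88, 2.8, 3.33 and 2.61 CPM for Diff. hepatocytes and 2.47, 2.18, 2.28 and 1.43 CPM for mature hepatocytes. Mature libraries lay below all others, while hepatoblasts and Diff. hepatocytes overlapped through Diff. hepatocytes replicate 1. Its log2 fold change was -0.71 (standard error 0.28, not called) in Diff. hepatocytes and -1.52 (standard error 0.29) in mature hepatocytes against hepatoblasts. Without Diff. hepatocytes replicate 1, and likewise with library totals, the first was -1.03 and Klf4 was called. Between the hepatocyte groups Klf4 gave 0.81 (standard error 0.29, not called), and 1.34, called, with library totals.

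Klf5 (ENSMUSG00000005148, chr14:99298691-99315036, plus strand) promotes growth of intestinal and other epithelia. The gene had 3.22, 1.31, 1.42 and 0.795 CPM for hepatoblasts, 17.3, 10.5, 11.3 and 12.2 CPM for Diff. hepatocytes and 0.411, 0.834, 0.875 and 0.683 CPM for mature hepatocytes. Diff. hepatocytes lay apart from both other groups, with replicate 1 the highest, and replicate 1 was also the highest of the hepatoblasts. In counts the mature libraries held 6, 13, 15 and 11 reads, so counting error is large in that group. Its log2 fold change was 2.92 (standard error 0.36) against hepatoblasts and 4.17 (standard error 0.41) against mature hepatocytes. The first was 3.44 without hepatoblast replicate 1 and 2.74 without Diff. hepatocytes replicate 1. Mature hepatocytes against hepatoblasts gave -1.25 (standard error 0.41, not called), and -0.74 without hepatoblast replicate 1, -1.50 and called without replicate 4, and -2.13 and called with library totals. It was also called by DESeq2 (-1.27) and with no filter beyond 1 count (-1.29). The bile duct markers, which are epithelial genes with low levels in hepatocytes, were also highest in Diff. hepatocytes. Of the 6 tested, 3 were called higher and 0 lower in Diff. hepatocytes than in hepatoblasts and none was at 0 counts. Krt19 went from 1.75 ± 0.306 to 47.3 ± 28.4 CPM and Krt7 from 1.56 ± 0.355 to 41.9 ± 32.6 CPM, and Diff. hepatocytes replicate 1 again held the highest Krt7 at 90.2 CPM. The part of bile duct cells in the Klf5 level was not tested.

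**Figure D3:**
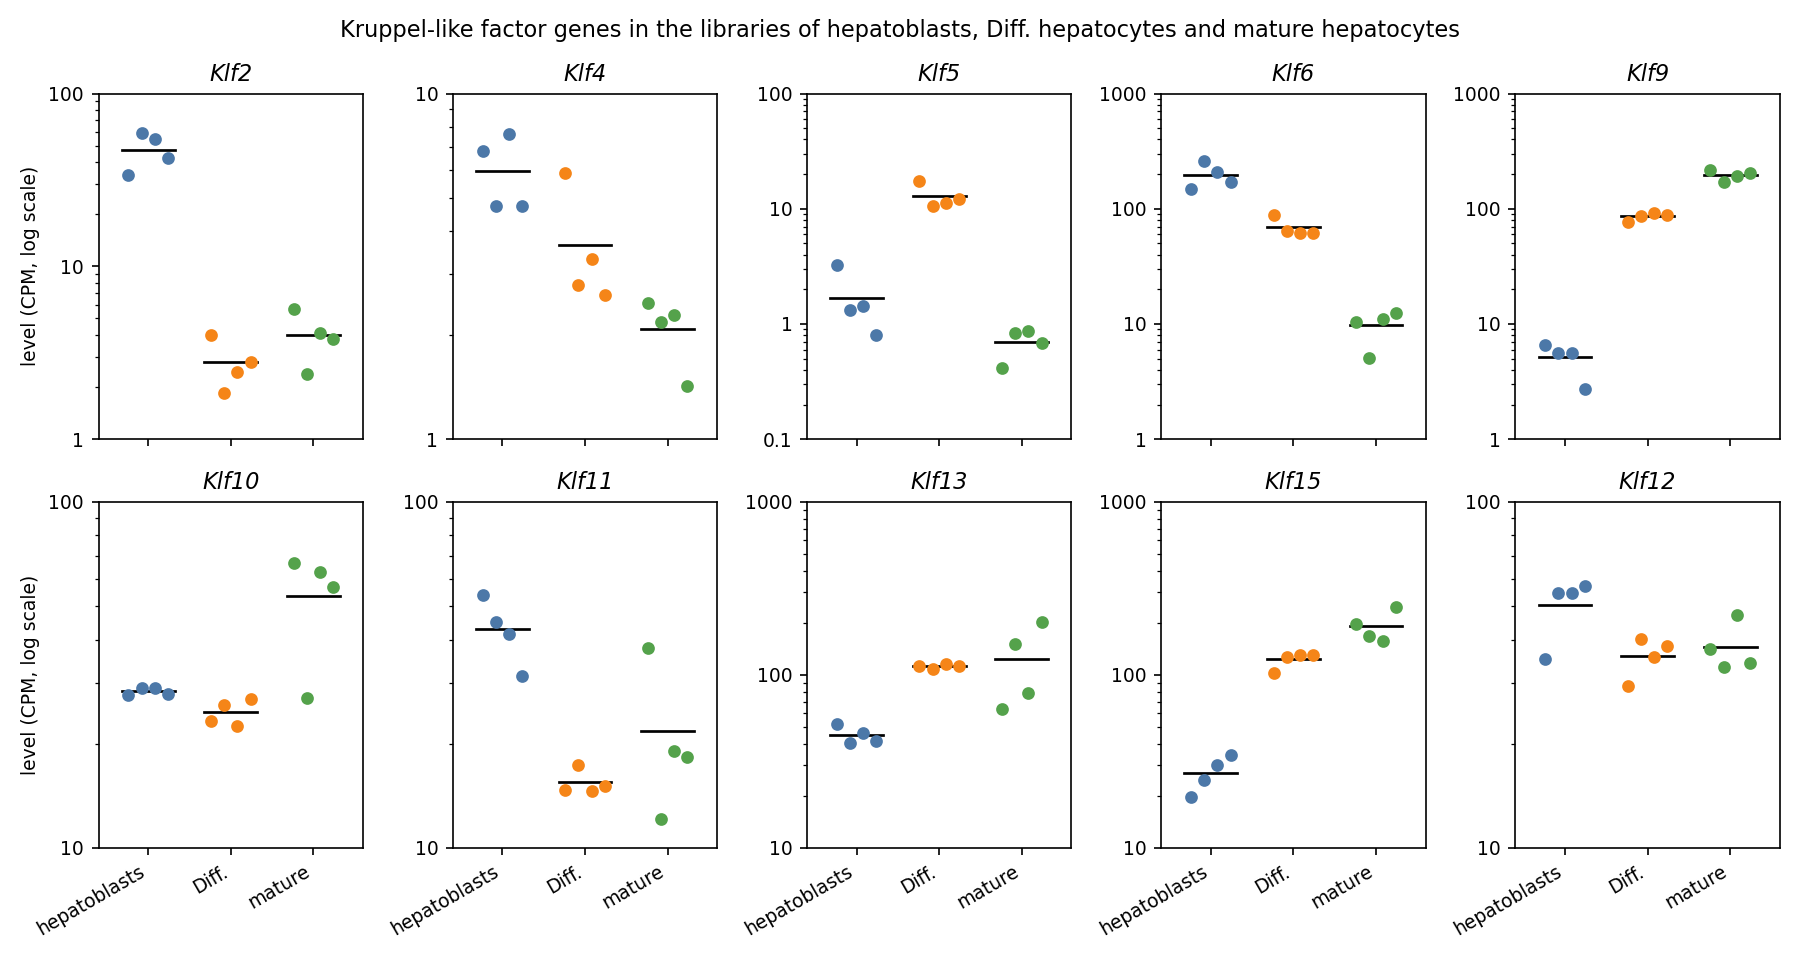
Level of each member in each of the 12 libraries in CPM on a log scale, ordered by the branch of the family, with points for replicates 1 to 4 from left to right and a line at the mean of each group. All hepatoblast libraries lay below the others for Klf9 and Klf15 and above them for Klf2 and Klf6, and Klf13 ran from 63.2 to 202 CPM among mature hepatocytes.

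Klf9, Klf10, Klf11 and Klf13 bind Sin3 and are mostly known as repressors. Klf9 (ENSMUSG00000033863, chr19:23141226-23168134, plus strand) is induced by thyroid hormone and by glucocorticoids. It rose from the low end of the family to near its top, with 6.61, 5.61, 5.57 and 2.72 CPM for hepatoblasts, 76, 86.4, 92.3 and 89 CPM for Diff. hepatocytes and 219, 171, 193 and 206 CPM for mature hepatocytes. No library of a group overlapped with another group, and replicate 4 was the lowest of the hepatoblasts. The log2 fold change against hepatoblasts was 4.06 (standard error 0.21) in Diff. hepatocytes and 5.26 (standard error 0.22) in mature hepatocytes. Against mature hepatocytes, Diff. hepatocytes gave -1.20 (standard error 0.18), and -0.67, not called, with library totals.

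Klf13 (ENSMUSG00000052040, chr7:63886351-63938915, minus strand) is known from activated T cells and heart development. Hepatoblasts had 51.7, 40.6, 45.9 and 41.6 CPM and Diff. hepatocytes 113, 108, 115 and 112 CPM, while mature hepatocytes had 63.2, 151, 78.4 and 202 CPM. Hepatoblasts lay below both other groups, Diff. hepatocytes were close together, and the mature libraries were spread on both sides of them, low in replicates 1 and 3 and high in replicates 2 and 4. Klf13 had a log2 fold change against hepatoblasts of 1.32 (standard error 0.28) in Diff. hepatocytes and 1.46 (standard error 0.28) in mature hepatocytes, and with library totals 0.99 and 0.59, neither called. Between the hepatocyte groups the value was -0.14 (standard error 0.28, not called) and turned to 0.19 without mature replicate 4 and to 0.39 with library totals. Mature replicates with high Klf13 had low Arntl. Clock, the partner of Arntl, measured 99.7, 33.9, 88.5 and 49.6 CPM for mature replicates 1 to 4. The macrophage marker sum was 251, 144, 275 and 140 CPM over the same replicates. The endothelial sum was 264, 153, 263 and 193 CPM, and both sums were lower in replicates 2 and 4. The part of the circadian clock, or of other cells, in the spread of Klf13 was not tested.

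Klf10 (ENSMUSG00000037465, chr15:38291463-38300706, minus strand) and Klf11 are early response genes of TGF-beta signalling, and Klf10 also follows the liver clock. Klf10 was even in hepatoblasts, at 27.7, 28.9, 28.9 and 27.8 CPM, and in Diff. hepatocytes, at 23.2, 25.9, 22.5 and 27 CPM, and had 66.8, 27.1, 62.7 and 56.8 CPM for mature hepatocytes. Replicate 2 of the mature hepatocytes lay just below the hepatoblasts, the other mature libraries lay above them, and all mature libraries were higher than every Diff. hepatocyte library. The log2 fold change was -0.20 (standard error 0.20) in Diff. hepatocytes and 0.91 (standard error 0.20) in mature hepatocytes against hepatoblasts, neither called. Without mature replicate 2 the second was 1.12 and Klf10 was called, and with library totals it was 0.05 and not called. Diff. hepatocytes against mature hepatocytes gave -1.12 (standard error 0.21), called, but -0.99 without mature replicate 1 and -0.57 with library totals, neither called.

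Klf11 (ENSMUSG00000020653, chr12:24651274-24662789, plus strand), a regulator of insulin and of metabolic genes, had 53.7, 45, 41.4 and 31.4 CPM for hepatoblasts, 14.7, 17.4, 14.6 and 15.1 CPM for Diff. hepatocytes and 37.7, 12.1, 19 and 18.3 CPM for mature hepatocytes. Hepatoblasts were apart from Diff. hepatocytes, and mature replicate 1 alone reached the hepatoblast range. For Klf11 the log2 fold change was -1.47 (standard error 0.27) in Diff. hepatocytes and -0.98 (standard error 0.27, not called) in mature hepatocytes against hepatoblasts. The second was called without mature replicate 1 (-1.39), without hepatoblast replicate 3 (-1.01) or 4 (-1.12) and with library totals (-1.86). A replicate block and the lack of a filter beyond 1 count each gave -1.03, also called. Between the hepatocyte groups Klf11 gave -0.49 (standard error 0.27, not called) and turned to 0.05 with library totals.

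Klf15 (ENSMUSG00000030087, chr6:90462576-90475238, plus strand) promotes gluconeogenesis and amino acid breakdown in liver and is a target of the glucocorticoid receptor. It measured 19.6, 24.8, 30.1 and 34.2 CPM for hepatoblasts, 103, 127, 131 and 130 CPM for Diff. hepatocytes and 196, 167, 158 and 248 CPM for mature hepatocytes. The 3 groups did not overlap, replicate 1 was the lowest of both the hepatoblasts and the Diff. hepatocytes, and replicate 4 was the highest of the mature libraries. Fold changes of Klf15 in log2 were 2.17 (standard error 0.18) in Diff. hepatocytes and 2.82 (standard error 0.19) in mature hepatocytes against hepatoblasts, and 2.05 and 2.69 without hepatoblast replicate 1. Between the hepatocyte groups it was -0.65 (standard error 0.17), and -0.11 with library totals, neither called.

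Klf12 (ENSMUSG00000072294, chr14:99870632-100284679, minus strand), which represses through CtBP, was the only member called in none of the 3 comparisons with TMM scaling. With library totals Klf10, at -0.53, 0.05 and -0.57, was called in none of them. Hepatoblasts had 35.1, 54.4, 54.6 and 57.3 CPM, Diff. hepatocytes 29.4, 40.1, 35.5 and 38.4 CPM and mature hepatocytes 37.6, 33.4, 47 and 34.2 CPM. The ranges of each pair of groups overlapped, that of hepatoblasts only through the low replicate 1. The log2 fold changes were -0.49, -0.40 and -0.09 (standard error 0.16 each) in the 3 comparisons, none called, and -0.62 and -0.55 in the comparisons with hepatoblasts without hepatoblast replicate 1. With library totals, mature hepatocytes against hepatoblasts gave -1.24 and Klf12 was called, and Diff. hepatocytes against mature hepatocytes turned to 0.44. The latter value was 0.03 without mature replicate 3.

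Levels of different genes were compared per kilobase of exon (RPKM, from the TMM-scaled CPM). In hepatoblasts Klf6 was the highest member at 44.8 ± 11 RPKM and Klf2 the second at 25.6 ± 6.19 RPKM, each with a range apart from the next. They took 39.5% and 22.6% of the summed RPKM of the members. Klf11, Klf15, Klf12, Klf10 and Klf13 followed between 9.88 and 5.97 RPKM, each overlapping with its neighbour, and Klf4, Klf9 and Klf5 were lowest at 1.96, 1.06 and 0.325 RPKM. In Diff. hepatocytes the order began with Klf15 at 44 ± 4.67 RPKM, or 39.2% of the sum, apart from Klf9 at 17.8 ± 1.46, Klf6 at 15.7 ± 2.97 and Klf13 at 14.9 ± 0.36 RPKM. Neighbours among these last 3 overlapped, and Klf4 came last at 1.2 RPKM, within the range of Klf2 at 1.51 RPKM. In mature hepatocytes Klf15 led with 68.9 RPKM (56.5 to 88.8), or 44.5%, followed by Klf9 with 41 ± 4.22 RPKM, or 26.5%, each apart from the next. Klf13 and Klf10 overlapped at 16.4 and 12.8 RPKM, Klf6 and Klf2 overlapped at 2.22 and 2.17 RPKM, and Klf5 was last at 0.135 RPKM. The leading member by this measure was thus Klf6 in hepatoblasts and Klf15 in both hepatocyte groups. The summed RPKM of all 10 ran from 94.2 to 133 in hepatoblasts, from 108 to 114 in Diff. hepatocytes and from 133 to 187 in mature hepatocytes.

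**Figure D4:**
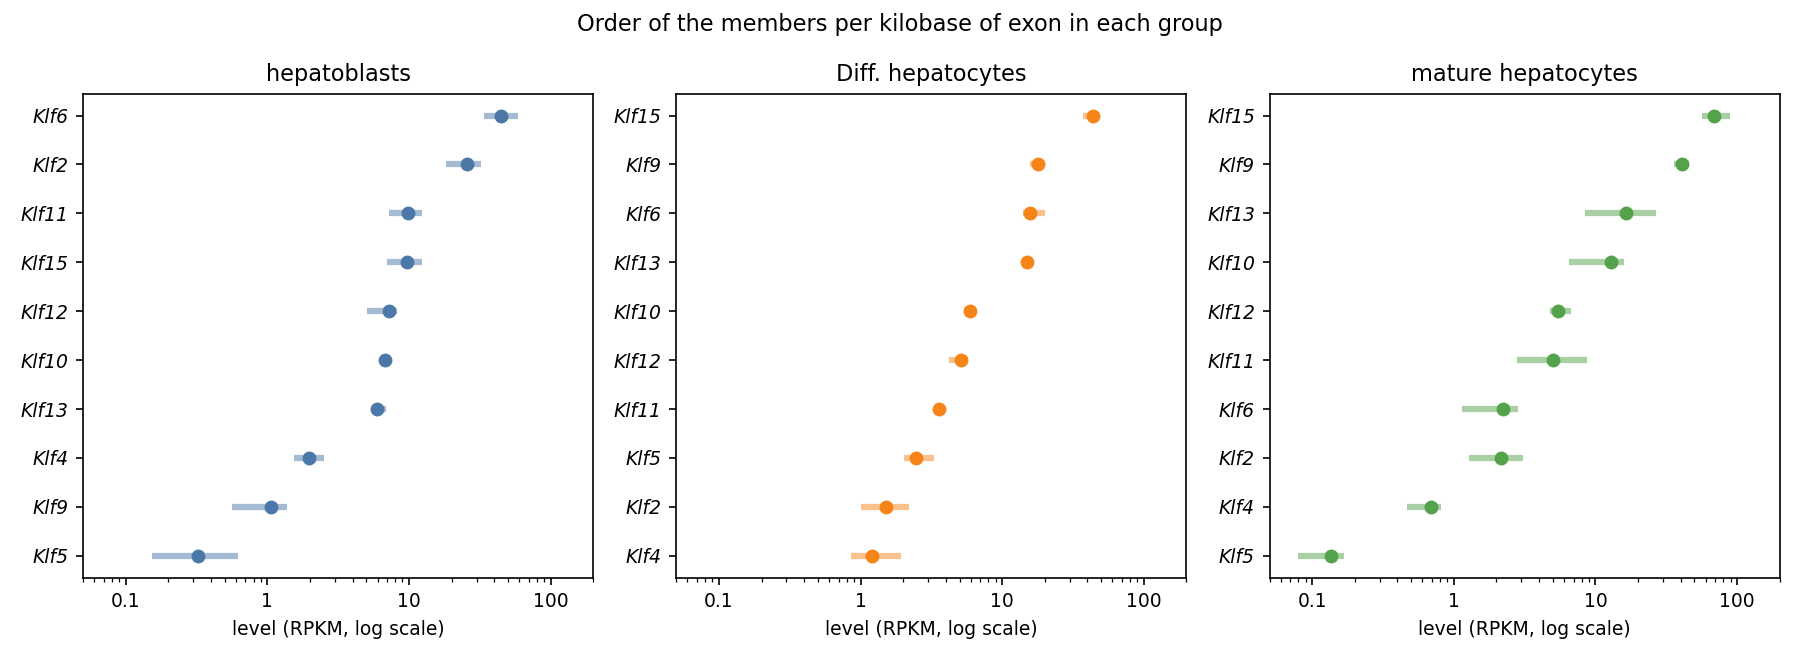
Members ordered by their mean level in each group, in RPKM on a log scale, with a point at the mean and a bar from the lowest to the highest of 4 libraries. Klf6 (44.8 RPKM) and Klf2 (25.6 RPKM) led in hepatoblasts, and Klf15 and Klf9 led in Diff. hepatocytes (44 and 17.8 RPKM) and in mature hepatocytes (68.9 and 41 RPKM).

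Of the 7 Klf genes in the table outside the members, 6 were tested. In Diff. hepatocytes against hepatoblasts 0 were called higher and 3 lower (median -0.78 against -0.01 for all genes). In mature hepatocytes 0 were called higher and 5 lower (median -2.36 against -0.15 for all genes, or -1.33 with genes at or under 3 counts set to that floor). Klf3, a CtBP-binding repressor, was the most abundant in CPM, at 68.5 ± 7.79, 103 ± 5.01 and 88.9 ± 12.6 CPM for hepatoblasts, Diff. hepatocytes and mature hepatocytes, and was not called in any comparison. Klf7 had 25.5 ± 3.25 CPM for hepatoblasts and 21.9 ± 1.9 CPM for Diff. hepatocytes, and was lower in all 4 mature libraries at 5.83 ± 0.119 CPM (log2 fold change of -2.12 with a standard error of 0.11, edgeR adjusted p = 2.05e-09). Klf16 fell to 10.3 ± 1.13 CPM for Diff. hepatocytes (log2 fold change of -1.08 with a standard error of 0.25, edgeR adjusted p = 0.00233) from 21.8 ± 3.7 CPM for hepatoblasts, with 8.44 ± 3.58 CPM for mature hepatocytes (log2 fold change of -1.36 with a standard error of 0.26, edgeR adjusted p = 0.000318). Klf1, the erythroid member, had 57.2, 10.3, 8.58 and 5.67 CPM for hepatoblasts, where replicate 1 also held the erythroid markers, and 1.61 ± 0.263 and 3.39 ± 0.944 CPM for Diff. and mature hepatocytes. Klf8 and Klf14 were at the edge of detection, Klf8 with 27, 14, 8 and 10 counts in hepatoblasts and 0, 0, 2 and 0 in mature hepatocytes and Klf14 with 7, 9, 12 and 13 counts in hepatoblasts and 0 in every mature library. Set against a floor of 3 counts per library, Klf8 was at least 2.47-fold and Klf14 at least 1.73-fold lower in mature hepatocytes than in hepatoblasts. Klf17 had at most 1 count in a library. Compared with mature hepatocytes, 2 of the 6, Klf7 and Klf8, were called higher in Diff. hepatocytes and 0 lower (median 1.10 against 0.09 for all genes, or 0.29 over the 5 genes above that floor in either group).

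Of the 9 Sp genes, 6 were tested, and the ubiquitous Sp1 and Sp3 were not called in any comparison. Sp1 measured 81.7 ± 4.54, 67.6 ± 3.54 and 57.5 ± 13.9 CPM for hepatoblasts, Diff. hepatocytes and mature hepatocytes, and Sp3 60.5 ± 3.86, 41.5 ± 3.31 and 46.4 ± 12.4 CPM. Sp2 was not called either, at 16.5 ± 3.41, 11 ± 0.723 and 8.59 ± 0.603 CPM. Sp4 was lower in both hepatocyte groups, at 5.21 ± 0.467 and 6.96 ± 1.42 CPM against 18.2 ± 1.6 CPM for hepatoblasts (log2 fold changes -1.80 and -1.38, standard error 0.15 each, edgeR adjusted p = 2.81e-07 and 1.52e-06). Sp5, a Wnt target, had 21, 41, 52 and 41 counts in hepatoblasts, 1, 0, 1 and 0 in Diff. hepatocytes and 44, 34, 26 and 35 in mature hepatocytes, so that Diff. hepatocytes were at least 9.16-fold below hepatoblasts and at least 16.5-fold below mature hepatocytes at the floor of 3 counts. Sp8 was counted only in Diff. hepatocytes, with 14, 5, 6 and 2 counts. The median of the list was -0.57 against -0.01 for all genes in Diff. hepatocytes and -0.44 against -0.15 in mature hepatocytes against hepatoblasts (or -0.51 over 5 genes), and 0.04 against 0.09 in Diff. hepatocytes against mature hepatocytes.

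Cofactors and ubiquitin ligases that act with these proteins were also read. Of 10 cofactors, 1 was called higher and 2 lower in Diff. hepatocytes (median -0.52 against -0.01 for all genes) and 1 higher and 3 lower in mature hepatocytes against hepatoblasts (median -0.38 against -0.15). Kat2b, an acetyltransferase, rose from 28 ± 2.01 CPM for hepatoblasts to 59.2 ± 3.48 CPM for Diff. hepatocytes (log2 fold change of 1.08 with a standard error of 0.11, edgeR adjusted p = 2.47e-06) and 122 ± 20.6 CPM for mature hepatocytes (log2 fold change of 2.12 with a standard error of 0.11, edgeR adjusted p = 1.95e-09). Hdac1, a deacetylase of the Sin3 complex, fell from 63.9 ± 2.56 to 20.1 ± 2.76 CPM for Diff. hepatocytes (log2 fold change of -1.67 with a standard error of 0.10, edgeR adjusted p = 2.82e-08). Sin3a, the partner of Klf9, Klf10, Klf11 and Klf13, had 52.4 ± 4.61, 38.4 ± 1.88 and 38.5 ± 0.932 CPM for hepatoblasts, Diff. hepatocytes and mature hepatocytes and was not called. Ctbp2 measured 6.29 ± 2.72, 5.28 ± 2.74 and 1.22 ± 0.533 CPM and was called lower in mature hepatocytes than in hepatoblasts (log2 fold change of -2.36 with a standard error of 0.43, edgeR adjusted p = 0.000259), while the more abundant Ctbp1 was not called. In Diff. hepatocytes against mature hepatocytes, 1 cofactor, Ctbp2, was called higher and 1, Kat2b, lower (median 0.05 against 0.09). Of 4 ubiquitin ligases described for them, none was called in Diff. hepatocytes against hepatoblasts (edgeR, median 0.23 against -0.01), and Smurf1 alone was called higher in mature hepatocytes (36.6 ± 6.06 against 17.9 ± 2.04 CPM, edgeR adjusted p = 6.75e-06, list median 0.45 against -0.15).

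Receptors, kinases and factors known to act on Klf genes formed a list of 15. In Diff. hepatocytes against hepatoblasts 0 were called higher and 1 lower (median 0.19 against -0.01 for all genes), and in mature hepatocytes 4 higher and 2 lower (median 0.07 against -0.15). Nr3c1, the glucocorticoid receptor, measured 54.1, 54.8, 60.1 and 60.5 CPM for hepatoblasts, 65.2, 61.9, 57.7 and 67.8 CPM for Diff. hepatocytes and 124, 116, 127 and 136 CPM for mature hepatocytes. Hepatoblasts and Diff. hepatocytes overlapped and mature hepatocytes were higher in 4 of 4 libraries (log2 fold change of 1.13 with a standard error of 0.08, edgeR adjusted p = 3.05e-08). Thrb, the main thyroid hormone receptor of liver, had 15, 18.9, 22 and 23.3, then 17.9, 26.6, 21.9 and 24, then 77.6, 52.6, 75.6 and 68.7 CPM in the same groups. It was called higher in mature hepatocytes than in hepatoblasts (log2 fold change of 1.79 with a standard error of 0.16, edgeR adjusted p = 3.84e-07) and not called in Diff. hepatocytes. Klf9 was called in both comparisons, and the part of thyroid hormone in its level was not tested. Mapk7, the kinase that induces Klf2 and Klf4 in endothelium, had 10.8 ± 0.876 CPM for hepatoblasts, 7.82 ± 1.19 CPM for Diff. hepatocytes and 1.8 ± 0.663 CPM for mature hepatocytes (log2 fold change in mature hepatocytes of -2.57 with a standard error of 0.24, edgeR adjusted p = 4.70e-07). Its upstream kinase Map2k5 went the other way, from 13.2 ± 0.884 to 27.1 ± 1.45 CPM for mature hepatocytes (log2 fold change of 1.04 with a standard error of 0.08, edgeR adjusted p = 8.53e-08). Of the TGF-beta receptors, Tgfbr1 measured 36.9 ± 4.49, 43.7 ± 5.78 and 40.1 ± 3.47 CPM and Tgfbr2 44.1 ± 6.92, 53.6 ± 7.3 and 32.5 ± 12.1 CPM for hepatoblasts, Diff. hepatocytes and mature hepatocytes, and neither was called. In Diff. hepatocytes against mature hepatocytes 1 of the 15, Mapk7, was called higher and 1, Thrb, lower (median 0.13 against 0.09).

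The culture medium held dexamethasone, and 9 genes induced by glucocorticoids were read beside Klf9 and Klf15. Of these, 6 were called higher and 2 lower in Diff. hepatocytes than in hepatoblasts (median 1.55 against -0.01 for all genes), and against mature hepatocytes 6 higher and 1 lower (median 1.38 against 0.09). Zbtb16 had 3.58, 0.955, 0.615 and 0.431 CPM for hepatoblasts, 102, 126, 117 and 117 CPM for Diff. hepatocytes and 40.2, 33.8, 35.9 and 28.4 CPM for mature hepatocytes, so it was highest in culture (log2 fold change against hepatoblasts of 6.37 with a standard error of 0.46, edgeR adjusted p = 9.78e-08). Mt2 went the opposite way, from 277 ± 29.4 to 28.4 ± 11.5 CPM (log2 fold change of -3.28 with a standard error of 0.45, edgeR adjusted p = 3.51e-05). In mature hepatocytes against hepatoblasts 3 of the 9 were called higher and 2 lower (median 0.22 against -0.15), and Errfi1, the most abundant over all 12 libraries, had 187 ± 38.1, 550 ± 39 and 1805 ± 141 CPM for hepatoblasts, Diff. hepatocytes and mature hepatocytes. Klf9 and Klf15 were higher in mature hepatocytes than in the dexamethasone culture in every library with TMM scaling (for Klf15 only -0.11 remained with library totals), whereas Zbtb16 was lower. The part of dexamethasone in the Klf levels was not tested, since every cultured library had it.

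Genes described as targets of the members were mixed. Of 12, 4 were called higher and 4 lower in Diff. hepatocytes (median -0.15 against -0.01 for all genes), and 6 higher and 3 lower in mature hepatocytes against hepatoblasts (median 1.04 against -0.15). S1pr1, a Klf2 target in lymphocytes, had 23.6, 33.3, 34.2 and 36.4 CPM for hepatoblasts, 2.08, 1.38, 1.24 and 1.43 CPM for Diff. hepatocytes and 66.4, 53.7, 83 and 76.4 CPM for mature hepatocytes. It was low with Klf2 in Diff. hepatocytes (log2 fold change of -4.37 with a standard error of 0.21, edgeR adjusted p = 2.57e-09) but high where Klf2 was low in mature hepatocytes (log2 fold change of 1.13 with a standard error of 0.16, edgeR adjusted p = 3.34e-05). Nos3, the endothelial nitric oxide synthase, had the same order of groups at 0.884 ± 0.329, 0.305 ± 0.0704 and 2.24 ± 0.692 CPM. The endothelial marker sum given with Klf2 also had that order, and the part of endothelial cells in these levels was not tested. Thbd, a further endothelial target of Klf2, went the other way in culture, from 1.44 ± 1.3 CPM for hepatoblasts to 4.86 ± 1.69 CPM (log2 fold change of 1.75 with a standard error of 0.47, edgeR adjusted p = 0.00624), with 2.8 ± 0.801 CPM for mature hepatocytes. Cdkn1a, named above with Klf6, had 12.2 ± 1.57 CPM for hepatoblasts, 183, 190, 176 and 197 CPM for Diff. hepatocytes and 14.8, 1.73, 7.35 and 2.36 CPM for mature hepatocytes. It was high in every cultured library (log2 fold change against hepatoblasts of 3.93 with a standard error of 0.45, edgeR adjusted p = 6.20e-06) and, like Arntl, low in mature replicates 2 and 4. Dio1, the thyroid hormone deiodinase that Klf9 is described to activate, had 0.136 ± 0.0556, 1.91 ± 1.15 and 190 ± 44.1 CPM (log2 fold change of 3.78 with a standard error of 0.53, edgeR adjusted p = 4.05e-05 in Diff. hepatocytes against hepatoblasts). Its step from Diff. to mature hepatocytes was -6.62 seen from Diff. hepatocytes, beside -1.20 for Klf9. Smad7, an inhibitor of TGF-beta signalling repressed by Klf10, had 20.4 ± 3.81, 14.6 ± 4.05 and 48.3 ± 20.3 CPM and was called higher in mature hepatocytes than in hepatoblasts (edgeR adjusted p = 0.00116). Between the hepatocyte groups, 3 of the 12 were called higher in Diff. hepatocytes and 6 lower (median -1.23 against 0.09).

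The enzymes of amino acid breakdown, the process linked to Klf15, were mostly higher in hepatocytes. Of 8, 7 were called higher and 1 lower in Diff. hepatocytes (median 2.70 against -0.01 for all genes) and 7 higher and 0 lower in mature hepatocytes against hepatoblasts (median 5.79 against -0.15). All 8 were called lower in Diff. hepatocytes than in mature hepatocytes (median -2.32 against 0.09). Prodh, the proline dehydrogenase regulated by Klf15, had 6.84, 5.94, 5.73 and 5.04 CPM for hepatoblasts, 38.7, 51.3, 52.5 and 50.2 CPM for Diff. hepatocytes and 222, 269, 204 and 255 CPM for mature hepatocytes, with Diff. hepatocytes replicate 1 lowest of its group as for Klf15 (log2 fold change against hepatoblasts of 3.03 with a standard error of 0.14, edgeR adjusted p = 1.79e-09). Tat measured 2.33 ± 0.261, 725 ± 145 and 2412 ± 254 CPM and Tdo2 0.582 ± 0.0873, 1.61 ± 0.152 and 2114 ± 481 CPM in the 3 groups. Tdo2 was called higher in Diff. hepatocytes (edgeR adjusted p = 7.99e-05) but reached a far smaller part of its adult level there than Tat did. Aass was the 1 enzyme called lower in Diff. hepatocytes, at 74 ± 7.73 against 216 ± 46.6 CPM for hepatoblasts (edgeR adjusted p = 3.16e-06).

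Klf2, Klf4, Klf6 and Klf10 respond quickly to stimulation and to the handling of cells, so 14 immediate-early and heat shock genes were read beside them. Their sum was 2541, 3654, 4052 and 3481 CPM for hepatoblasts, 425, 422, 406 and 412 CPM for Diff. hepatocytes and 3955, 1999, 3288 and 3046 CPM for mature hepatocytes, with Jun the most abundant over all 12 libraries. Of the 14, 13 were called lower in Diff. hepatocytes (median -3.00 against -0.01 for all genes), and 2 were called higher and 5 lower in mature hepatocytes against hepatoblasts (median -0.57 against -0.15). Fosb had 222 ± 45.7, 0.642 ± 0.204 and 71.9 ± 30.9 CPM for hepatoblasts, Diff. hepatocytes and mature hepatocytes, and Nr4a1 19.4 ± 6.19, 2.09 ± 0.319 and 183 ± 98.2 CPM. The sum was thus high in both freshly lysed groups, but not every gene followed it. Ier3 had 1.98 ± 1.73 CPM for mature and 8.41 ± 4.57 CPM for Diff. hepatocytes, and Hspa1a 0.283 ± 0.104 and 0.237 ± 0.113 CPM. Klf2 and Klf6 were high in hepatoblasts and low in mature hepatocytes. Mature replicate 2 had the lowest immediate-early sum and the lowest Klf2, Klf6 and Klf10 of its group, while Klf4 was lowest in replicate 4. Among hepatoblasts, replicate 1 had the lowest sum and the lowest Klf2, Klf6 and Klf10, and Klf4 was lowest in replicate 2. Set against mature hepatocytes, 1 of the 14, Ier3, was called higher in Diff. hepatocytes and 11 lower (median -2.89 against 0.09). Isolation differed between the groups, and its part in the Klf levels was not tested.

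Klf6 and Klf4 act on the cell cycle, and the 10 cell cycle genes were all called lower in both hepatocyte groups than in hepatoblasts (median -4.02 against -0.01 for all genes in Diff. hepatocytes and -6.25 against -0.15 in mature hepatocytes). Mki67 measured 630 ± 267, 24.7 ± 11.9 and 4.9 ± 1.16 CPM for hepatoblasts, Diff. hepatocytes and mature hepatocytes. Against mature hepatocytes 8 of the 10 were called higher in Diff. hepatocytes (median 2.12 against 0.09). Klf6 is also known from stellate cells, and the sum of the 9 mesenchymal markers was 1323, 1716, 2284 and 1840 CPM for hepatoblasts and 49.6, 54.4, 72.3 and 60 CPM for mature hepatocytes, with Reln the most abundant in both groups and none of the list at 0 counts in a library. In Diff. hepatocytes, where Klf6 was lower than in hepatoblasts, 4 of them were called higher and 1 lower (median 0.77 against -0.01), and in mature hepatocytes 1 higher and 8 lower (median -5.08 against -0.15). Acta2 had 10.5 ± 2.75, 236 ± 116 and 0.278 ± 0.148 CPM and Reln 864 ± 184, 93 ± 22.5 and 21.7 ± 6.36 CPM in the 3 groups. Lrat, the 1 marker called higher in mature hepatocytes (log2 fold change of 1.46), had 2.12 ± 0.351, 1.09 ± 0.207 and 5.81 ± 2.3 CPM. The part of mesenchymal cells in the Klf6 level was not tested.

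For each member the 3 most similar genes were found among 10194 genes with a mean of at least 5 CPM, by the root mean square difference of centred log2 CPM over the 12 libraries, given in parentheses. The nearest to Klf2 were Tonsl (0.49), Cenpq (0.50) and Egr2 (0.51). For Klf6 they were Lamb2 (0.31), Dcbld2 (0.36) and Spry2 (0.37), and for Klf5 Fry (0.40), Ahnak (0.47) and Anxa3 (0.53). Klf9 was nearest to Shtn1 (0.40), Rnf39 (0.41) and Lad1 (0.46), at a distance similar to that of Klf2 and Klf5 from their neighbours. Klf15 had closer neighbours, Tns2 (0.14), Ppara (0.14) and Slc27a2 (0.15), as had Klf10 with Zfp36l1 (0.16), Gtf2ird1 (0.20) and Hexim1 (0.21) and Klf12 with Prpf40b (0.11), Nek4 (0.12) and Abca1 (0.13). Those of Klf13 were Ppp1r3e (0.27), Mast3 (0.28) and Pcgf5 (0.28), those of Klf11 Rel (0.29), Cep135 (0.29) and Net1 (0.31) and those of Klf4 Kctd5 (0.22), Fntb (0.26) and Cmtm3 (0.28). Ppara, the fatty acid receptor nearest to Klf15 after Tns2, had means of 34.2, 138 and 241 CPM for hepatoblasts, Diff. hepatocytes and mature hepatocytes, beside 27.2, 123 and 192 CPM for Klf15. A small distance is a likeness of levels in these 12 libraries and says nothing about control.

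Promoters of 8 of the 10 members were found in a table of 32851 RefSeq promoters on GRCm38.p6, each from 250 bases before to 50 after the start of the gene. Klf5 and Klf10 had no entry. Motifs were searched as exact letters on both strands, and a match is a description and not a binding site. The GC box GGGCGG, to which Sp factors and Kruppel-like factors bind, was in 6 of the 8 (all but Klf9 and Klf12) and in 35.7% of all promoters. CACCC was in 5 of 8 and 57.5% of all, and TGACG, the core of cyclic AMP response elements, in 6 of 8 and 20.8% of all. The E box CACGTG, which the Clock and Arntl proteins bind, was in Klf4, Klf6, Klf11 and Klf15 and in 7.15% of all promoters. CCAAT was in 5 of 8 and 37.4% of all, TATAAA in Klf12 alone and 13.6% of all, and AGAACA, a single arm of glucocorticoid response elements, in 0 of 8 and 19% of all. GC content was 45.7% in Klf12, whose RefSeq start lies inside the longer GENCODE gene, and between 63% and 77.7% in the other 7, with a median of 52.7% over all promoters.

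The promoters of the members called in both comparisons against hepatoblasts are shown, 5′ to 3′ on the strand of the gene, with all matches to these 7 motifs in capitals. Overlapping matches run together, as for GC boxes with CACCC in Klf13 and TGACG with the E box in Klf15.
Klf2, chr8:72318812-72319111, plus strand: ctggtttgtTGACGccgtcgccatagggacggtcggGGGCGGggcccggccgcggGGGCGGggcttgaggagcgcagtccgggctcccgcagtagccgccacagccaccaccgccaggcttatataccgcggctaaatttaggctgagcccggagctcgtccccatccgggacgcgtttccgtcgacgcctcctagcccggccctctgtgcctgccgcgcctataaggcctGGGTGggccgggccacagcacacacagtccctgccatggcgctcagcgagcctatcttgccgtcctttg
Klf6, chr13:5861239-5861538, plus strand: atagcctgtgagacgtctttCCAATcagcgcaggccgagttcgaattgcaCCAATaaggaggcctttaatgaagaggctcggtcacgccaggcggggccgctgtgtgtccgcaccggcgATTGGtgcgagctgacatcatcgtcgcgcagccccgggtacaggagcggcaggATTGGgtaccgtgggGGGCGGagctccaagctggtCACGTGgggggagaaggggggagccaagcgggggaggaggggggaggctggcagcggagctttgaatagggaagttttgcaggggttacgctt
Klf9, chr19:23140976-23141275, plus strand: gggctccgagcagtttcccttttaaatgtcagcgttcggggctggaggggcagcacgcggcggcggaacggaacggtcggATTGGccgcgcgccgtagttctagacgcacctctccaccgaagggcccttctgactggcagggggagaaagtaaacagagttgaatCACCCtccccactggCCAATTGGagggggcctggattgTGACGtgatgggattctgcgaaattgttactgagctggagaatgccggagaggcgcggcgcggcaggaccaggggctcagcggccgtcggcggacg
Klf13, chr7:63938866-63939165, minus strand: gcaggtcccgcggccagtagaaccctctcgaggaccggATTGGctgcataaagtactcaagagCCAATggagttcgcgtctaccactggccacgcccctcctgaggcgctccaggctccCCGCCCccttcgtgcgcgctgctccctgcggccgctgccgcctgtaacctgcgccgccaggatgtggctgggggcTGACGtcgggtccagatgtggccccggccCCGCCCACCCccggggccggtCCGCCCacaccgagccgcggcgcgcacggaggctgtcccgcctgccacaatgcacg
Klf15, chr6:90462326-90462625, plus strand: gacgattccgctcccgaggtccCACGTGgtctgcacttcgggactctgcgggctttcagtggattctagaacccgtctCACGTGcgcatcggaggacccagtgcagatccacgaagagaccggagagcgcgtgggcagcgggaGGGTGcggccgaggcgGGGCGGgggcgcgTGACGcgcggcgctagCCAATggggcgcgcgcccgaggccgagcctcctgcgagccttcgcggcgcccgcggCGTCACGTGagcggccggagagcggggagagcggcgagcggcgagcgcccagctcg
Klf2 and Klf6, the leading members of hepatoblasts, held 2 and 1 GC boxes. Klf6 had 4 CCAAT boxes and 1 E box, and Klf2 had neither. Of the members high in hepatocytes, Klf15 had 3 E boxes, 1 GC box and 2 TGACG matches, Klf13 had 3 GC boxes and Klf9 none.

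Counting could mix few members with other genes. Klf13 overlaps E030018B13Rik and Gm27252 on the opposite strand, which had at most 68 and 59 counts in a library against up to 3247 for Klf13. Klf12 overlaps 4930517O19Rik and Gm16260 on the opposite strand, with at most 8 and 4 counts against up to 1823 for Klf12. Klf9 contains Mir1192 on its own strand, with at most 8 counts against up to 3321 for Klf9. Of the read-length sequences in the transcripts of Klf12, 2.71% also occur in other genes, and for the other 9 members 0% do, so the near-identical zinc fingers of the family did not blur the counts by this measure.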

How the data were processed

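RNA of 12 libraries of 3 groups was measured by sequencing. The deposited values are counts per gene, which the authors made with STAR 2.5.2b on GRCm38. Their processing notes also name FastQC 0.11.2, Picard 2.10.2 and DESeq2 1.22.2. The strand setting of the counting is not given in the sources used here. All 12 count columns were used. The filter kept 17779 of 53715 genes, those that exceeded 10 counts in some library, and 21338 were 0 everywhere. One edgeR 4.0.16 quasi-likelihood fit with TMM scaling over 12 libraries (R 4.3.3, limma 3.58.1) gave all fold changes, standard errors and Benjamini-Hochberg adjusted p. Called means an adjusted p below 0.01 together with a log2 fold change beyond 1 in either direction. RPKM divides the scaled CPM by the union exon length of GENCODE M21, in which 53620 of 53715 identifiers were found. Log2 CPM used a prior count of 2. Summaries were made with pandas 2.3.3 and numpy 2.4.6. The edgeR step was tested on simulated data.

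The 10 members and the gene lists were chosen with earlier results of these data known. Of the listed genes, the text names those described with a member or a cell type, and some of those at either end of a list. The 3 genes nearest to each member were taken by distance alone. Alternatives were DESeq2 1.42.0, edgeR glmTreat, DESeq2 size factors, library totals, other filters, fits of 8 libraries, a replicate block and each library left out.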

Additional observations from a re-analysis of the deposited data

Results flagged for a closer look

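The members, the other tested Klf and Sp genes, further listed genes named in the text, marker sums, library totals and TMM factors were examined in each group. A library far from the other 3 was sought by Dixon's ratio. Of 309 such groups of 4 libraries 39 had one, where about 15.4 would be found if values were normal, independent and chosen without regard to their levels. That does not hold here, since genes of the same library move together and some were picked for the text with their values known. The numbers are therefore no test of an excess. The ratio is always at its maximum where the other 3 libraries are at 0, which holds for 4 of the 39 (Klf8, Klf14 and, in 2 groups, Kel) that rest on 1 to 4 counts. Of all 39, 19 were hepatoblast replicate 1 and 9 were Diff. hepatocyte replicate 1. Values are in CPM, with the range of the other 3 libraries of the group in parentheses.

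Diff. hepatocyte replicate 1 was high for Klf6 at 88.2 (61.3 to 64), Thbd at 7.39 (3.86 to 4.09), Tgfbr1 at 52.4 (40.4 to 41.2) and Kel at 0.173 (0 in each). It was also high for Krt7 at 90.2 (20.6 to 32.4) and the sum of cell cycle genes at 180 (97.8 to 100). Diff. hepatocyte replicate 1 was low for Klf15 at 103 (127 to 131), Prodh at 38.7 (50.2 to 52.5) and Cps1 at 5298 (6093 to 6190). Hepatoblast replicate 1 was high for Klf1 at 57.2 (5.67 to 10.3), Sp2 at 21.6 (14.4 to 15.3), Thra at 40.6 (30.1 to 31.4) and Slc2a4 at 3.06 (0.597 to 0.866). It was also high for Zbtb16 at 3.58 (0.431 to 0.955), Mki67 at 1029 (474 to 533), Kel at 85.7 (10.3 to 18.5) and Tfrc at 395 (104 to 142). It was also high for Alas2 at 85.3 (16 to 19.7), Marco at 66.1 (19.8 to 22.6), Cd5l at 84.9 (18.4 to 25.6) and Ctbp1 at 143 (83 to 89.2). It was also high for the sum of erythroid markers at 3464 (505 to 768) and the sum of macrophage markers at 356 (88.1 to 109). Hepatoblast replicate 1 was low for Klf12 at 35.1 (54.4 to 57.3), Clock at 23 (34.5 to 35.9), Aass at 147 (233 to 248) and Errfi1 at 131 (199 to 213). It was also low for Reln at 589 (937 to 973). Diff. hepatocyte replicate 2 was high for Klf14 at 0.129 (0 in each). Diff. hepatocyte replicate 2 was low for Klf7 at 19.1 (22.7 to 23.1). Mature hepatocyte replicate 3 was high for Klf8 at 0.117 (0 in each) and Dlk1 at 6.42 (3.17 to 3.63). Mature hepatocyte replicate 2 was low for Sp1 at 36.6 (63.6 to 65.8). Mature hepatocyte replicate 4 was high for Slc2a4 at 1.12 (0.0686 to 0.193) and Wwp1 at 134 (96.6 to 101). Diff. hepatocyte replicate 3 was high for Gpt at 40.1 (28.6 to 30.1). Mature hepatocyte replicate 1 was high for Kel at 0.0686 (0 in each), Krt19 at 9.33 (2.05 to 2.28) and Krt7 at 1.3 (0.321 to 0.372).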

How the results depend on the processing

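The count of called genes was 5145 in Diff. hepatocytes against hepatoblasts and 6362 in Diff. hepatocytes against mature hepatocytes, and edgeR glmTreat, which tests against a fold change threshold, gave 2966 and 4221. Members called were 7 and 4 in these comparisons and 4 and 2 with glmTreat, which ended the calls of Klf6, Klf11 and Klf13 in the first and of Klf9 and Klf10 in the second by its stricter test. In mature hepatocytes against hepatoblasts glmTreat gave 5750 genes in place of 7971 and 4 members in place of 6, without Klf4 and Klf13. Members called there were 7 with DESeq2 and 8 with no filter beyond 1 count, which added Klf5 and Klf11, and 8 with library totals. Leaving out 1 library at a time gave 4704 to 5170, 7621 to 7967 and 6027 to 6532 genes in the 3 comparisons, 7 to 8, 6 to 8 and 3 to 4 members, and 84 to 92, 94 to 98 and 80 to 89 listed genes that are not members. With a replicate block, genes called were 5220, 7988 and 6359, members 7, 7 and 4 and listed genes 92, 99 and 88. Libraries of the same number are not paired by the labels, and their deviations from the group means correlated between hepatoblasts and Diff. hepatocytes with an r of 0.324, -0.0589, 0.246 and 0.184. Of 600 member fold changes under the alternatives, 575 lay within 1 SD of the replicates from the main value and 25 did not, all with library totals. No called value changed sign. In Diff. hepatocytes against mature hepatocytes 4 members that were not called did, with library totals Klf2 (0.02), Klf11 (0.05), Klf12 (0.44) and Klf13 (0.39), and without 1 mature library Klf12 (0.03) and Klf13 (0.19). The setting with no filter beyond 1 count also moved the median of all genes by -0.11 in mature hepatocytes against hepatoblasts. Counts of 15 or fewer, as for Klf5 in mature hepatocytes, limit the precision.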

Other observations

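The level of RNA does not show the level or the activity of a Klf protein, and no library measured protein. Age, sex, isolation and culture differ between the groups at once, so none of them can be told apart as a source of a difference. Each group had 4 libraries, the hour of isolation was not given, and the members were chosen by these values. Fold changes against the mature group depend on the scaling more than the others do, as the shift of -0.85 with library totals in mature hepatocytes against hepatoblasts shows.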
